A study of Mus musculus with 6 samples.

Results

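Genes for neuropeptides, for the granin proteins packed with them and for peptide receptors were followed in sorted cells of the Atoh1 lineage of the mouse embryo. The members were a list of 42 genes, and all probe sets that the platform annotation assigned to 1 of these symbols and to no other were taken. These were 59 probe sets for 41 genes, out of 45101 probe sets in the table and 18193 genes with such a probe set. Calca had no such probe set and was not analysed here. Where a gene had several probe sets, the one with the highest mean log2 signal stood for the gene, and other probe sets are given where they were tested or bear on a stated overlap.

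Atoh1, a basic helix-loop-helix factor, marks the rhombic lip, which produces cerebellar granule cells and neurons of several brainstem nuclei. All samples came from Swiss Webster embryos that carried Atoh1-CreER and the EGFP reporter RCE, and tamoxifen (4 mg per 35 g of dam, by gavage) turned the reporter on in cells that expressed Atoh1 near the time of dosing. Dosing was at E10.5 in the early and at E13.5 in the late group, and in both the r1/isthmus region was dissected at E14.5 and EGFP-positive cells were sorted. Each group held 3 samples, each on its own array. The recombinase, not the reporter, is driven by Atoh1, so a cell labelled at dosing stays EGFP-positive when its Atoh1 level later changes, and the day of dosing and the time from dosing to sorting changed together. The sources used here do not state whether the samples were separate litters or how many embryos each held. P-values therefore describe no more than the scatter among these samples, which may be technical.

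Neuropeptides are cut from longer precursors in the secretory pathway, stored in dense-core vesicles and released on stimulation to act on G protein-coupled receptors. Granins are acidic proteins that help form and fill these vesicles, and their presence marks a regulated secretory pathway in neurons and endocrine cells. Cerebellins are secreted C1q-type proteins that join presynaptic neurexins to postsynaptic delta glutamate receptors, and Cbln1 is known as the granule cell factor of parallel fibre synapses.

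Values are MAS5 signals in units. Because this signal depends on the probe set, levels were compared between arrays and never between genes, and each array's median signal (97.7 to 112 units) served as the mark of a dim signal. Late arrays correlated with each other at a Spearman rho of 0.938 to 0.945, early arrays at 0.874 to 0.893, and arrays of different groups at 0.845 to 0.886. Actb control probes, a sign of RNA quality, gave 3′ over 5′ ratios of 17.4 to 26.2 on early arrays against 12.9 to 16.1 on late arrays, while those of Gapdh overlapped (10.6 to 13.2 against 9.47 to 12.1), and the part of this shift in the results below was not tested. Early replicate 3 had an Xist signal of 166 units against 8141 to 19797 units on the other arrays, and late replicate 3 an Eif2s3y signal of 14.1 units against 826 to 1772 units, so these samples held cells of 1 sex. Both were left out together in an added fit. Every other array was high in both genes (Xist 8141 to 18008 units, Eif2s3y 826 to 1131 units). Those samples thus held cells of both sexes, from more than 1 embryo. Atoh1, whose expression at dosing the labelling selects for, was 13.1-fold higher in the late group at sorting. The cause of that difference was not tested.

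All 5 marker genes of the Atoh1 lineage lay above the median on every array, with sums of 12100 to 15809 units on early and 10684 to 14381 units on late arrays. Such a sum mostly follows its brightest probe sets and is not a measure of cell number. The 5 genes passed in both directions. Lhx9 (10.8-fold), Lhx2 (3.67-fold) and Slc17a6, a vesicular glutamate transporter (3.64-fold), were higher in the early group, and Barhl1 (4.89-fold) was higher in the late group, as was Atoh1. Of 4 general neuron markers, Tubb3, Map2 and Stmn2 were higher in the early group and Snap25 did not pass, and their summed signals were 47486 to 50691 units in the early and 21174 to 24807 units in the late arrays. Of 7 measured markers of GABAergic and glycinergic neurons, Gad1 and Gad2 were higher in the early group. Slc32a1 and Lhx1 did not pass, Lhx1 averaging 242 units early and 412 units late. Slc6a5, Ptf1a and Lhx5 were not tested, and the sums overlapped (962 to 1796 against 707 to 1037 units). Of 4 oligodendrocyte lineage markers, Olig1 and Olig2 were higher in the early group, Sox10 did not pass and Cspg4 was not tested. The sums (2450 to 2996 against 382 to 614 units) mostly followed Olig1, with means of 2149 and 164 units. Of 5 markers of radial glia and astrocytes, Fabp7 and Aldh1l1 passed toward the early and Slc1a3 toward the late group. The sums (8368 to 9673 against 4254 to 6531 units) were mostly Fabp7, with means of 8432 and 4638 units. Aldh1l1 was at or below the median on all 3 late arrays. With dim signals raised to the array median, Aldh1l1 did not pass (limma adjusted p = 0.0839). Of 6 microglial markers, Csf1r alone passed, toward the early group (254 to 740 against 104 to 156 units). The sums of that list were 498 to 1219 against 308 to 437 units. Of 6 mesenchymal markers Pdgfra alone passed, toward the late group (120 to 258 against 478 to 692 units). Sums of the mesenchymal list overlapped (439 to 2188 against 731 to 1115 units). Of 4 measured sensory ganglion markers, Tlx3 and Pou4f1 were higher in the late group (sums of all 4, 305 to 465 against 672 to 839 units). The others of that list, Isl1 and Prph, were not tested and lay at or below the median on every late array, and Prph read 110.2 to 137 units on early against 31.6 to 63.2 units on late arrays. Of 5 measured catecholamine neuron markers (sums of 479 to 828 against 468 to 559 units) 3 were tested. Among 5 endothelial markers (sums of 356 to 1829 against 162 to 1064 units) 2 were tested. None of these tested markers passed with limma, and 0 of them had an unadjusted p under 0.05. All 3 serotonin neuron, all 4 cholinergic motor neuron and all 3 red blood cell markers measured lay at or below the median on every array, with sums of at most 77.6, 231 and 128 units. The part of these other cells in the differences below was not tested, and in sorted bulk samples a change in the number of cells of a type cannot be told apart from a change in RNA per cell.

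Somatostatin, tachykinin, galanin, 3 granin and 2 receptor genes were among those higher in the early cells, while Cartpt and the somatostatin receptors Sstr2 and Sstr3 were higher in the late cells. Of the 41 genes, 25 were bright enough to be tested, meaning above the array median on at least 3 of the 6 arrays. Among these, 12 were higher in the early group, 3 were higher in the late group and 10 did not pass (limma, Benjamini-Hochberg adjusted p under 0.05). Over all 11064 genes tested the same rule called 30.2%, namely 1796 genes toward the early and 1544 toward the late group. The median log2 difference, early minus late, was 1.22 over the 25 members and -0.03 over all genes tested. The filter itself can favour genes that differ, since a gene bright in 1 group only can enter through that group. Among the 15 members above the median on all 6 arrays, 8 passed toward the early and 1 toward the late group, where all 8965 such genes gave 15.0% and 13.6% (28.6% in all). By probe set, 30 of the 59 were tested and 16 passed, against 26.0% of the 23471 tested in the whole table. The early and late signals did not overlap in 22 of the 30 tested member probe sets, and over all tested probe sets this held for 46.9%. No gene had probe sets called in opposite directions, though only 4 of the 12 genes with several probe sets had more than 1 tested. Without both arrays of 1 sex, 6 member genes were past the threshold toward the early group and 2 toward the late group. The genes lost in that fit were Penk, Gal, Cartpt, Cbln2, Cbln4, Chga and Crhr1. Without the filter on dim signals, Cck, Tac1, Penk, Cartpt, Cbln4 and Crhr1 did not pass (limma adjusted p from 0.0527 to 0.08).

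**Figure D1:**
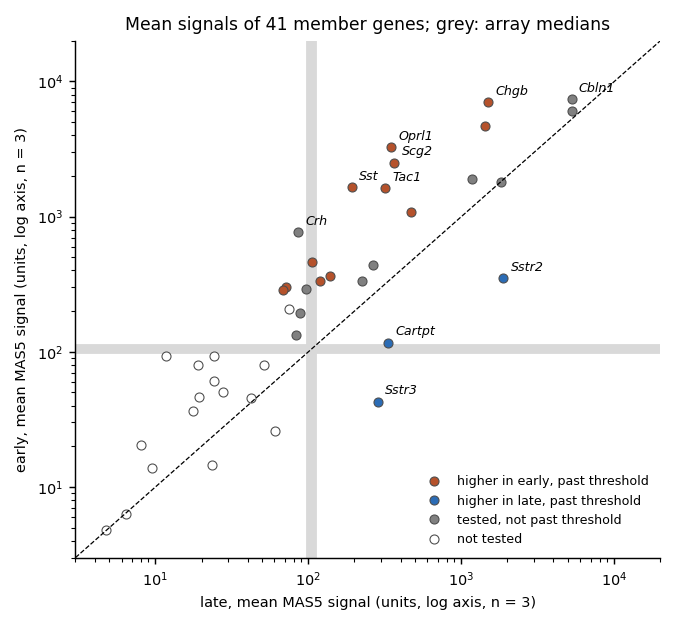
Mean signals of the 41 member genes in the late (x axis) and early (y axis) groups, in MAS5 units on log axes, 3 arrays each. The dashed line marks equal means and the grey bands the range of array medians. Most coloured points, the genes past the threshold, lie above the line, and Sstr2, Sstr3 and Cartpt lie below it.

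Many members were dim. On every one of the 6 arrays, 11 of the 41 genes (26.8%) lay at or below the array median, against 30.9% of all genes. They were the peptide precursor genes Calcb, Tac2, Nts, Npy, Trh, Nppc, Pnoc and Ucn and the receptor genes Sstr1, Tacr1 and Oprm1, and Oprm1, the mu opioid receptor, was dim with all 4 of its probe sets. The untested genes Pdyn, Grp, Vip, Npy1r and Oprk1 exceeded the median on 1 or 2 arrays, all of them early. Grp, gastrin-releasing peptide, read 41.4, 193 and 44.1 units in the early and 9.51, 21.1 and 4.32 units in the late arrays, so only early replicate 2 stood above its median. Oprk1, the kappa opioid receptor, read 329.9, 209 and 87.6 units in the early and 31.2, 93.7 and 99.3 units in the late arrays, and the groups overlapped. Its second probe set read 228, 194 and 97.5 units in the early and 13.3, 66.2 and 75.4 units in the late arrays, without overlap, and was also too dim to test. In a limma fit without the filter, none of the 16 untested genes passed, while 4 had an unadjusted p under 0.05.

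Of the 20 neuropeptide precursor genes measured, 9 were tested. Sst, Tac1, Cck, Gal and Penk were higher in the early group, Cartpt was higher in the late group, and Adcyap1, Nmb and Crh did not pass. Sst encodes somatostatin, an inhibitory peptide of many neurons. It read 1050, 2100 and 1837 units in the early arrays and 233, 199 and 144 units in the late arrays, so every early array lay above every late one. The difference was 3.08 ± 0.33 (log2, SE), or 8.47-fold, the largest among the tested peptide precursors (limma adjusted p = 0.00246), and it passed in all 17 alternative fits (adjusted p from 0.000189 to 0.0451).

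Tac1, the precursor of substance P and neurokinin A, read 1795, 2191 and 893 units in the early arrays and 503, 298 and 147 units in the late arrays. The groups did not overlap, but the arrays within each were spread widely, and the difference of 2.44 ± 0.54 (log2, SE), or 5.42-fold, passed with a limma adjusted p of 0.0221. It no longer passed without early replicate 1 (limma adjusted p = 0.0569), early replicate 2 (0.052), late replicate 2 (0.0682) or late replicate 3 (0.0598). A second Tac1 probe set lay below the median on every array. Gal encodes galanin, an inhibitory peptide. It was even across the early arrays at 278, 304 and 282 units and read 94.4, 46.4 and 65.0 units in the late arrays, all at or below the median. Its fitted difference was 4.38-fold (limma adjusted p = 0.00442) and 2.80-fold with dim signals raised to the array median, and it ended without both arrays of 1 sex (adjusted p = 0.0635).

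Cck, the cholecystokinin precursor, read 329.7, 411 and 161 units in the early and 78.2, 61.2 and 73.2 units in the late arrays. Like Gal it was dim on every late array, and its 3.97-fold difference (limma adjusted p = 0.0125) became 2.71-fold against the median. The call ended without late replicate 2 (limma adjusted p = 0.0514). Penk, the precursor of the enkephalins, read 225, 429 and 348 units in the early and 95.6, 137 and 123 units in the late arrays, 2.75-fold apart (limma adjusted p = 0.0167). Its late signals were near the array median, and the call ended without late replicate 1 (limma adjusted p = 0.0656) or late replicate 3 (0.0609).

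Cartpt, the precursor of the CART peptides, was the one tested peptide gene higher in the late group. It read 112, 161 and 78.5 units in the early and 395, 305 and 289.6 units in the late arrays, 2.92-fold apart (limma adjusted p = 0.0153). Every late array was above every early one, and early replicates 1 and 3 were at or below their medians. Without late replicate 1, 2 or 3 the limma adjusted p was 0.0622, 0.0513 and 0.0501.

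The 3 tested peptide genes that did not pass differed in kind. Adcyap1, the precursor of PACAP, had 2 probe sets above the median on all arrays: the brighter one read 379, 453 and 491 units in the early and 191, 249 and 358 units in the late arrays (log2 difference 0.77 ± 0.28, SE, limma adjusted p = 0.0888, or 0.0496 with the stricter filter), while the other overlapped between the groups, with means of 255 and 254 units. Nmb, neuromedin B, averaged 333 ± 53.4 units early and 224 ± 24.7 units late (SD, n = 3, limma adjusted p = 0.0914). Crh, corticotropin-releasing hormone, read 392, 0.565 and 1921 units in the early and 5.30, 95.8 and 156 units in the late arrays. It was the most uneven member, its early arrays holding both the lowest and the highest of its 6 values, and its difference of 0.81 ± 3.12 (log2, SE) cannot be read in either direction.

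**Figure D2:**
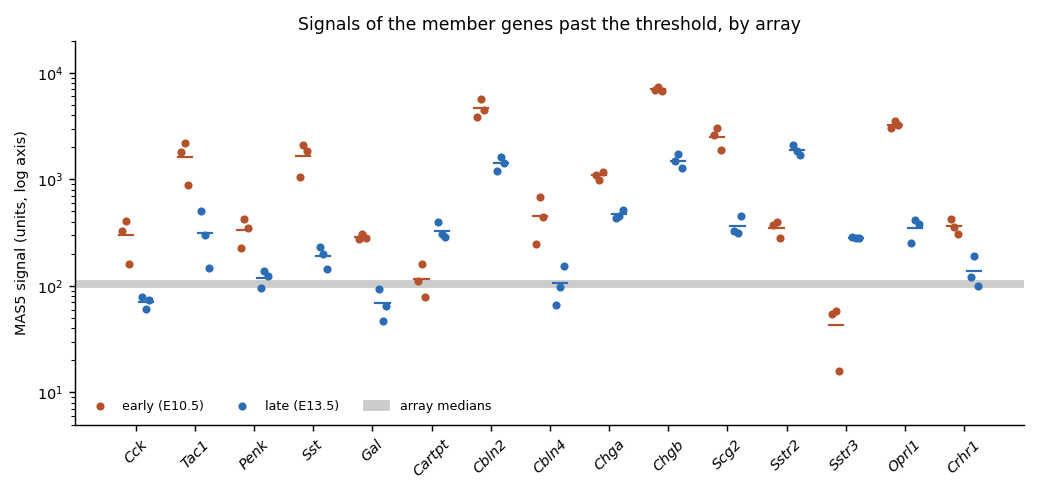
Signals of the 15 member genes past the threshold, in MAS5 units on a log axis, with 1 point per array (3 early, 3 late), bars at the group means and a grey band at the array medians of 97.7 to 112 units. In each gene the early and late points do not overlap, and the late points of Cck and Gal and the early points of Sstr3 lie in or below the band.

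All 3 cerebellin genes were tested. Cbln2 and Cbln4 were higher in the early group, and Cbln1 did not pass. Cbln2 read 3882, 5716 and 4436 units in the early and 1203, 1637 and 1417 units in the late arrays, well apart, with a 3.28-fold difference (limma adjusted p = 0.00436) that ended only without both arrays of 1 sex (0.061). Cbln4 read 247, 685 and 441 units in the early and 65.6, 97.2 and 155 units in the late arrays, late replicates 1 and 2 being at or below the median. Its difference was 4.23-fold (limma adjusted p = 0.0238), or 3.53-fold with dim signals raised to the median, and it was lost without early replicate 3 (0.0572), late replicate 1 (0.0799) or late replicate 2 (0.0773). Cbln1 was bright in both groups, at 6687, 6996 and 8481 units in the early and 4804, 5365 and 5582 units in the late arrays by its brightest probe set (1.40-fold, limma adjusted p = 0.102). Its other 2 probe sets gave 1.17-fold and 1.35-fold, neither of which passed. With an intensity trend and robust settings the brightest one passed (limma adjusted p = 0.023).

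The known partners of the cerebellins were in a wider list of peptide and receptor genes. Grid1, the delta receptor subunit that binds cerebellins, read 521, 318 and 347 units in the early and 89.6, 75.4 and 77.5 units in the late arrays (limma adjusted p = 0.00244, 3.75-fold against the median, since every late array was dim). Nrxn3, a presynaptic neurexin, averaged 1985 ± 504 units early and 343 ± 94.3 units late (SD, n = 3, limma adjusted p = 0.00298), and Nrxn2 was 3.29-fold higher in the early group (adjusted p = 0.0335). The Nrxn2 call was lost without early replicate 1 (limma adjusted p = 0.0707), early replicate 2 (0.0543) or late replicate 1, 2 or 3 (0.061, 0.094 and 0.112).

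All 5 granin genes lay above the median on every array. Chga, Chgb and Scg2 were higher in the early group, while Scg3 and Scg5 did not pass. Chgb, chromogranin B, read 6924, 7332 and 6796 units in the early and 1495, 1717 and 1274 units in the late arrays, a difference of 2.24 ± 0.19 (log2, SE), or 4.72-fold (limma adjusted p = 0.00149). Scg2, secretogranin II, the precursor of secretoneurin, read 2587, 3058 and 1874 units in the early and 327, 316 and 449 units in the late arrays, 2.77 ± 0.26 apart (log2, SE), or 6.84-fold (limma adjusted p = 0.00191). Both calls held in all 17 alternative fits. Chga, chromogranin A, differed less, at 1104, 979 and 1182 units in the early and 434, 453 and 517 units in the late arrays (2.33-fold, limma adjusted p = 0.00588), and ended only without both arrays of 1 sex (0.0627).

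The remaining granins showed high signals in both groups. Scg3, secretogranin III, which holds granins at the vesicle membrane, read 5148, 7137 and 5912 units in the early and 5195, 5202 and 5548 units in the late arrays, and the groups overlapped (log2 difference 0.18 ± 0.19, SE, limma adjusted p = 0.531). Scg5, the 7B2 chaperone of the convertase PC2, averaged 1911 ± 454 units early and 1164 ± 152 units late (SD, n = 3, 1.62-fold, limma adjusted p = 0.0746) and passed with an intensity trend and robust settings and with the stricter filter on dim signals.

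Promoter sequence was set beside these values because the cAMP response element is a textbook element of the somatostatin and granin promoters, bound by CREB family factors. The motif TGACGTCA, which reads the same on both strands, was searched in the 250 bases before each gene's start in the RefSeq promoter table (GRCm38.p6), where 32 of the 41 genes had an entry. It was found in 6 of them (18.8%), against 1.77% of 27025 genes in the table. Because the motif was chosen as one known from such promoters, a higher share was favoured in advance and is no result about the members. The 6 were Sst, Chgb and Scg2, higher in the early group, Sstr2 and Cartpt, higher in the late group, and Ucn, dim on every array, so the motif stood in genes of both directions. The 5 called genes are shown 5′ to 3′ on the gene's strand, ending at the base before the start, with the motif in capitals. The match is a description of these letters and not evidence of binding.
Sst (chr16:23890845-23891094, minus strand, motif 48 bases before the start): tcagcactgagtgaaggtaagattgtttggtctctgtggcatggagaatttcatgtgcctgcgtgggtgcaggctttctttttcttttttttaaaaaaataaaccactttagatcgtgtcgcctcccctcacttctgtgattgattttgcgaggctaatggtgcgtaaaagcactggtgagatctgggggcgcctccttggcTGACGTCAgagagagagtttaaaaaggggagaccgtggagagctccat
Chgb (chr2:132781392-132781641, plus strand, motif 72 bases before the start): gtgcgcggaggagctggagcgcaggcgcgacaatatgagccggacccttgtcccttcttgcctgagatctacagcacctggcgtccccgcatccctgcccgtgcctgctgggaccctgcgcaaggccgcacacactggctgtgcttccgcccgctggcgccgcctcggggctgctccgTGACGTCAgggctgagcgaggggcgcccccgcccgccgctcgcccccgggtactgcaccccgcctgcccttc
Scg2 (chr1:79440027-79440276, minus strand, motif 68 bases before the start): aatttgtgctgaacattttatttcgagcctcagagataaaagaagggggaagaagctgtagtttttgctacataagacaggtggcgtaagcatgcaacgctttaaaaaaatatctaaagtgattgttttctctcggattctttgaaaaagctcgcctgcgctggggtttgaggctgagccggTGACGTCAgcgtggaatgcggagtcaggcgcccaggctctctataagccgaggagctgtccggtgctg
Sstr2 (chr11:113619077-113619326, plus strand, motif 58 bases before the start): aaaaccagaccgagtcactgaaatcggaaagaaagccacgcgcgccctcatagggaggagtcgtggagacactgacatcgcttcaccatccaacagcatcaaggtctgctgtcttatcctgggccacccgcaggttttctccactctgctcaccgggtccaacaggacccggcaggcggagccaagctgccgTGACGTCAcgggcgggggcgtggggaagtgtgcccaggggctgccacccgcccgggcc
Cartpt (chr13:99900684-99900933, minus strand, motif 112 bases before the start): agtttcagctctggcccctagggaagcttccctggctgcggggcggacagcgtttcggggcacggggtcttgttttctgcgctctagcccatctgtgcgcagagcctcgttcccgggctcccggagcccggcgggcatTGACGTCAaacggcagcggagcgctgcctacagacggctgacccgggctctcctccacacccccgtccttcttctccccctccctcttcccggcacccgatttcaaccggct

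Of the 13 receptor genes, 8 were tested, and their calls went both ways: Oprl1 and Crhr1 were higher in the early group, Sstr2 and Sstr3 in the late group. Sstr2, a somatostatin receptor that couples to inhibitory G proteins, read 375, 396 and 283 units in the early and 2123, 1832 and 1695 units in the late arrays, a clear gap. The difference was -2.43 ± 0.21 (log2, SE), or 5.39-fold higher in the late group (limma adjusted p = 0.0016), and it held in all 17 alternatives. Sstr3, the somatostatin receptor of neuronal cilia, read 54.3, 58.2 and 16.0 units in the early and 289, 280.0 and 279 units in the late arrays. All early arrays were dim and all late arrays nearly equal, so the fitted 7.65-fold difference (limma adjusted p = 0.00987) was 2.64-fold with dim signals raised to the median. A second Sstr3 probe set read under its array's median on all 6 arrays. Sstr4 averaged 194 ± 88.6 units early and 87.6 ± 15.7 units late (SD, n = 3) and did not pass (limma adjusted p = 0.0736, or 0.0388 without early replicate 1), and Sstr1 was dim throughout. The ligand Sst and its receptor genes Sstr2 and Sstr3 differed in opposite directions between the groups.

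**Figure D3:**
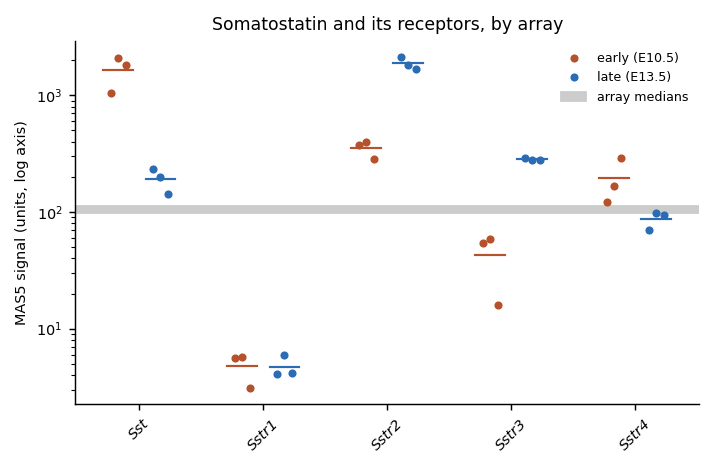
Signals of somatostatin (Sst) and of 4 of its receptor genes, in MAS5 units on a log axis, 1 point per array (3 early, 3 late), with bars at the group means and a grey band at the array medians. The early points are above the late ones for Sst and below them for Sstr2 and Sstr3, and Sstr1 lies far below the band in both groups.

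Oprl1, the receptor for nociceptin, had the largest difference toward the early group among the tested members. It read 3051, 3516 and 3207 units in the early and 252, 411 and 378 units in the late arrays, 3.26 ± 0.24 apart (log2, SE), or 9.57-fold (limma adjusted p = 0.00117). A second Oprl1 probe set also passed (4.13-fold, limma adjusted p = 0.0156), and 1 more was too dim to test. Pnoc, which encodes its ligand nociceptin, was at or below the median on all arrays, with 13.6 to 42.0 units in the early and 46.7 to 74.3 units in the late arrays. Crhr1, a receptor for corticotropin-releasing hormone, read 422, 358 and 309 units in the early and 121, 191 and 100.5 units in the late arrays, 2.72-fold apart (limma adjusted p = 0.0159). That call ended without late replicate 1 (limma adjusted p = 0.0648) or late replicate 3 (0.0603), and a second, dimmer Crhr1 probe set overlapped between the groups (adjusted p = 0.231).

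The other tested receptors did not pass. Adcyap1r1, the PACAP receptor, was equal in both groups within its spread, at 1839, 1788 and 1799 units in the early and 1553, 2095 and 1764 units in the late arrays (log2 difference 0.01 ± 0.19, SE, limma adjusted p = 0.963). Tacr3, the neurokinin B receptor, read 174, 297 and 404 units in the early and 38.1, 189 and 60.7 units in the late arrays, with late replicate 2 above early replicate 1 (limma adjusted p = 0.0792, or 0.0253 without late replicate 2). A second Tacr3 probe set, too dim to test, read 64.8, 66.1 and 184 units in the early and 36.6, 8.72 and 8.94 units in the late arrays, without overlap. Ntsr1, a neurotensin receptor, overlapped between the groups, at 76.5 to 184 units in the early and 31.7 to 127 units in the late arrays (limma adjusted p = 0.35).

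**Figure D4:**
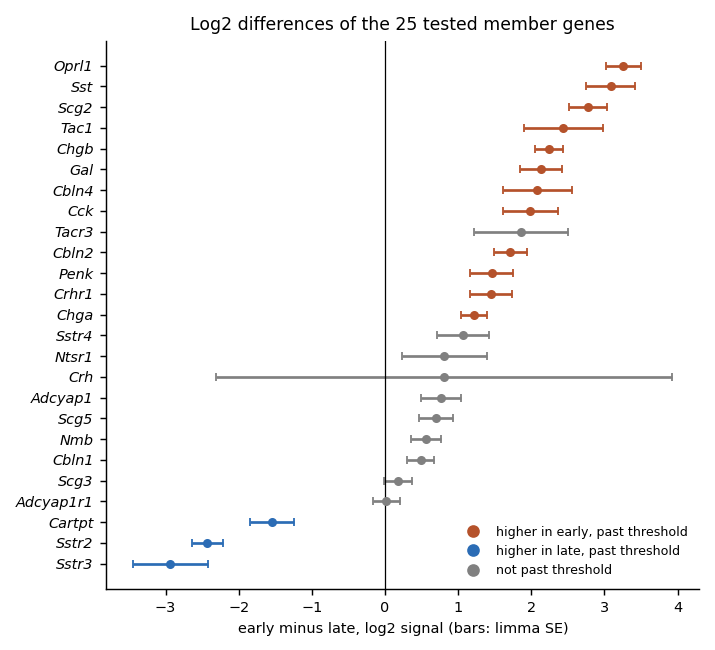
Log2 differences, early minus late, of the 25 tested member genes (points) with limma standard errors (bars), from 6 arrays. Oprl1, Sst and Scg2 lie at 3.26, 3.08 and 2.77, Cartpt, Sstr2 and Sstr3 at -1.55, -2.43 and -2.94, and the bar of Crh spans both sides of 0.

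The machinery that processes and stores peptides was read from a list of 20 genes, of which 16 were tested. Of these, 9 were higher in the early group, 1 was higher in the late group and 6 did not pass, beside 30.2% of all genes tested in either direction. The median log2 difference was 1.06, against -0.03 over all genes tested. Syt4, a synaptotagmin of dense-core vesicles, read 3082, 3005 and 2918 units in the early and 297, 439.6 and 392 units in the late arrays, 8.09-fold apart (limma adjusted p = 0.00115). Pcsk1n, which encodes proSAAS, read 1132, 1308 and 1062 units in the early and 293, 262 and 179 units in the late arrays (4.85-fold, limma adjusted p = 0.0024). Baiap3, a Munc13 relative of dense-core vesicle traffic, was 7.86-fold higher in the early group (limma adjusted p = 0.00496) and Rab27b, a vesicle GTPase, 5.78-fold (0.00843). With dim signals raised to the median these were 6.42-fold and 4.60-fold, and both calls ended without both arrays of 1 sex (adjusted p = 0.053 and 0.0816). Cadps, which primes dense-core vesicles, Ptprn2, Cpe, Hid1 and Vgf made up the rest of the 9. Without both arrays of 1 sex, 2 genes of the list were higher in the early group.

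Not every processing gene followed. Pam, the enzyme that amidates peptides, averaged 261 ± 23.5 units early and 199 ± 24.6 units late (SD, n = 3, limma adjusted p = 0.167). Cadps2, the close relative of Cadps known from granule cells, read 4771, 5135 and 6875 units in the early and 7896, 8471 and 8602 units in the late arrays, every late array being higher, but it did not pass (limma adjusted p = 0.0809). Pcsk1, a convertase, was not tested, being above the median on 1 early and 1 late array. The gene higher in the late group was Arfip1, an arfaptin of the trans-Golgi (1.56-fold, limma adjusted p = 0.0442), a call lost without early replicate 2 (limma adjusted p = 0.0749), early replicate 3 (0.0861) or late replicate 1, 2 or 3 (0.142, 0.0968 and 0.155).

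**Figure D5:**
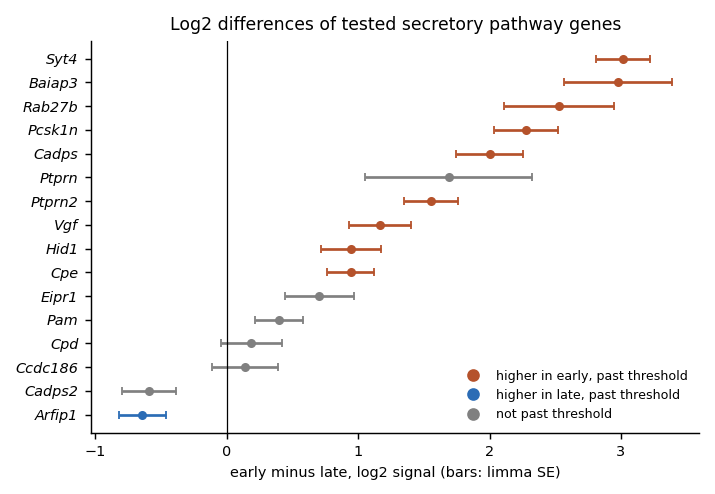
Log2 differences, early minus late, of the 16 tested genes of peptide processing and dense-core vesicles (points) with limma standard errors (bars), from 6 arrays. Syt4 and Baiap3 lie at 3.02 and 2.97, and Arfip1 and Cadps2 at -0.64 and -0.59.

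A further list of 72 peptide and receptor genes, outside the members, was mostly dim. Of the 59 genes with a probe set, 33 lay at or below the median on all arrays and 14 were tested. Of these, 6 passed toward the early group, beside 30.2% of all genes tested in either direction. Grid1, Trhr and Hcrt among them were at or below the median on all 3 late arrays and entered the test through the early arrays. Toward the late group 0 of the 14 passed by limma's adjusted p and 0 had an unadjusted p under 0.05. Vipr1 and Pomc were too dim to test but were higher in the late group without overlap. Their folds were 13.9 and 2.59, or 1.28 and 1.29 with dim signals raised to the median. Avp, Npy5r, Ntsr2, Calcr, Ramp3, Oxtr and Crhbp, also untested, were higher in the early group without overlap. Avp, Npy5r and Oxtr among them lay at or below the median on every array. With dim signals raised to the median, the folds were 1.18 for Ntsr2, 1.38 for Calcr, 1.30 for Ramp3 and 1.38 for Crhbp. The share of all untested genes without overlap was not counted. In a limma fit without the filter, 3 genes of this list passed toward the early and 1 toward the late group. The median log2 difference of the 14 was 0.68, against -0.03 over all genes tested. Beside Grid1, Nrxn2 and Nrxn3 those that passed were Trhr, Ednrb and Hcrt. Trhr, the thyrotropin-releasing hormone receptor, read 159, 128 and 562 units in the early and 13.1, 6.55 and 11.6 units in the late arrays. Its fitted 22.6-fold difference (limma adjusted p = 0.00452) was 2.19-fold with dim signals raised to the median and then did not pass (0.132). Without late replicate 1 or late replicate 3, 3 genes of this list were higher in the early group.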

How the data were processed

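Total RNA of sorted EGFP-positive cells was labelled with biotin and hybridised to Affymetrix mouse arrays. The deposited intensities are MAS5 signals, per the submitters' processing notes, on a linear scale. The trimmed mean of each array (2% cut from each end) came to 500 units. Of 45101 probe sets, 64 controls were left out, and 34945 had 1 gene symbol, 932 several and 9160 none in the platform annotation.

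Log2 signals were fitted with limma 3.58.1 in R 4.3.3 (lmFit, eBayes), early minus late, 3 samples per group, over the 23471 probe sets above the array median on at least 3 arrays. P-values were adjusted by Benjamini-Hochberg over all of these, with a threshold of 0.05. The small number of arrays limits the precision.

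The members and lists were chosen with earlier results of these data known. All members were described, and of each wider list at most the 4 genes with the largest called change per direction were given with values; Cadps2, Pam and Pcsk1 were chosen after their values were seen. Alternatives changed the filter, normalization, offset, floor, moderation, probe set choice and replicates, and the fit without both arrays of 1 sex was added after seeing the data.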

Additional observations from a re-analysis of the deposited data

How the results depend on the processing

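No called member changed direction in any alternative. All 15 called genes kept their call with quantile normalization, median centring, an added offset, the floor at the array median, an intensity trend with robust moderation and 1 probe set per gene. Without the filter, 2719 probe sets passed in place of 6104, with 7 member probe sets and 7 member genes higher in the early group, 0 secretory pathway genes higher in the late group, and 3 early and 1 late among the other peptide and receptor genes. With the filter at the 70th percentile, 1 member probe set and 1 member gene were higher in the late group, with 2 late secretory pathway genes and 3 early ones among the other genes. That setting tested only 8 of the 15 called members. Secretory pathway genes higher in the late group numbered 0 with median centring and 2 with the trend and robust settings. They numbered 0 without probe sets whose names end in _s_at, _x_at or _a_at. That last setting removed every probe set of Cck and Oprl1, and the 13 called members it refitted kept their call. Without both arrays of 1 sex, 1504 probe sets passed, with 6 member probe sets, 6 member genes, 2 secretory pathway genes and 3 other genes higher in the early and 0 secretory pathway genes in the late group.

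Leaving out each array in turn gave 2942 to 5849 probe sets, 9 to 13 member probe sets and 9 to 12 member genes higher in the early group, 2 to 3 of each in the late group, 0 to 1 secretory pathway genes in the late group, and 3 to 6 early and 0 to 1 late among the other genes. With the replicate block 3593 probe sets passed, all 15 called members kept their call and 0 secretory pathway genes passed toward the late group. The numbers share no labelled litter or day, and same-numbered samples did not deviate together (r = -0.03, -0.07 and -0.01), so they were not treated as pairs. Apart from fewer arrays or a changed set of tested probe sets, the cause was not tested. Signals near or below the array median limit the folds of Cck, Gal, Cbln4, Cartpt, Sstr3, Grid1 and Trhr.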
